A study of Mus musculus with 3 samples.

Results

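A set of 9 genes of innate immune sensing was followed: the activating receptors Trem1, Trem3, Clec4d, Clec4e, Clec4n, Clec5a and Clec7a, and the adaptors Tyrobp and Fcer1g that many such receptors signal through. They were listed by name, with earlier results of these data known. Every probe set that the platform annotation pairs with 1 of these symbols alone was taken. This gave 12 probe sets of 45037 on the array and 9 genes of the 18193 that have a probe set with a single symbol. RNA came from bone marrow cells of 10-week-old C57BL/6J mice that were positive for Sca-1 and negative for lineage markers, a gate that holds most blood stem cells and early progenitors. One array held wild type cells, one held cells labelled Tg(Ly6a-KDM1A*v2, Line 6, and one held cells of Line 3 of the same transgene. Ly6a is the gene of Sca-1, and KDM1A is the human symbol of the histone demethylase LSD1. The study's title asks what LSD1 does to gene expression in progenitors. Each genotype had 1 array, so no difference between 2 arrays has a replicate error, and the labels do not say how many mice each array stands for.

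Myeloid cells use these receptors to sense microbes, damaged cells and other inflammatory cues. Most have a short tail with no signal of its own and associate in the membrane with an adaptor, Tyrobp (DAP12) or Fcer1g (the Fc receptor gamma chain), whose tyrosine motif, the ITAM, recruits the kinase SYK. CARD9 and its partners then pass the signal on to NF-kB, while Clec7a carries a tyrosine motif of its own. The receptors are typical of neutrophils, monocytes and macrophages, and the adaptors are shared more widely, with Fcer1g also serving mast cells and basophils.

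All 7 receptors had lower intensities in both transgenic lines than in wild type, and the 2 adaptors stayed within 1.5-fold of wild type. On the log2(intensity + 16) scale, used for every difference below and called at 2-fold, 5 of the 9 genes passed 2-fold downward in both and 0 upward. The 5 were Trem1, Trem3, Clec4d, Clec4e and Clec5a. Over 10864 genes tested, 2.07% were lower in both lines and 1.35% were higher. The members were chosen with earlier results of these data known, so setting them against such shares is not a test. In Line 6, whatever the other line did, 5 members were at least 2-fold lower, against 2.41% of the genes tested. In Line 3, 7 were, against 4.46%. These 7 include Clec4n, which was too dim to be tested. Both comparisons use the same wild type array, so they share its chance values. The 7 receptor differences ran from -2.14 to -0.83 in Line 6 and from -3.27 to -1.09 in Line 3, where the medians over all genes tested were 0.06 and 0.12. A gene was tested when its brightest probe set reached the array's median on at least 1 array. Of the members, 8 did so on all 3 arrays, and Clec4n did so on none.

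**Figure D1:**
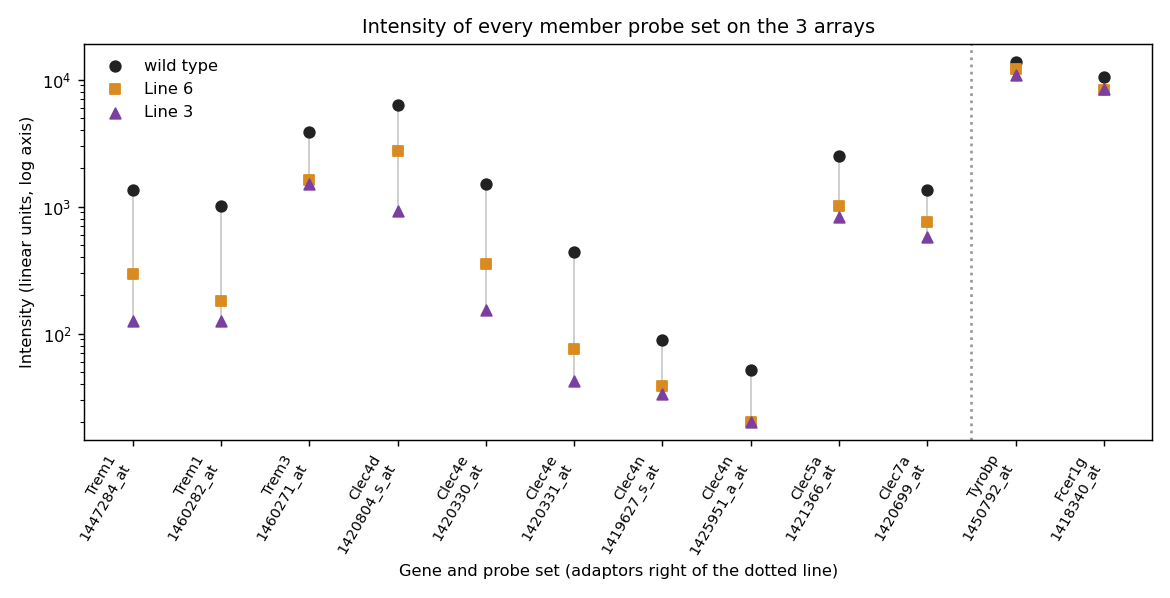
Intensity of the 12 member probe sets (linear units on a log axis), with 1 point for each of the wild type, Line 6 and Line 3 arrays. Heights are to be compared between arrays within a probe set. In every receptor probe set the wild type point is the highest, and for the brighter Trem1 probe set it stands at 1352 with the Line 3 point at 126, while the points of Tyrobp and Fcer1g lie close together.

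Markers of several cell types moved on the same arrays. Neutrophil markers had medians of -0.86 (Line 6) and -1.30 (Line 3); 8 of the 20 tested passed 2-fold downward in both and 0 upward. Their summed intensity over all listed genes with a probe set went from 235661 in wild type to 164436 and 139426. The furthest down were genes of late neutrophils, Il1r2 (-2.77 and -3.49) and Stfa2l1 (-1.76 and -3.97). Genes of early granules were near wild type, with Mpo at 0.02 and 0.10 and Ctsg at 0.01 and 0.31. Monocyte markers had medians of -0.44 and -0.41, with 2 of 17 past 2-fold downward in both and 0 upward, and sums of 97937, 78480 and 73768. The 2 were Cd14 (-2.50 and -1.61) and Itgam (-1.27 and -1.87), and Itgam encodes CD11b, an antigen that lineage depletion commonly targets. Tissue macrophage markers ran the other way, with 11 of 18 higher in both lines, none lower, and sums of 9935, 17116 and 20651. Among those higher, Cd5l (65.4), Spic (32.9), Siglec1 (49.8) and Mertk (49.5) read below the wild type array median of 96.2. They were tested through the lines alone and could hardly have been called lower. In this bulk RNA, fewer cells of a type and less RNA per cell cannot be told apart, and the part of these cell types in the receptor differences was not tested. The sex-linked genes also differed, Xist reading 2729 (wild type), 6152 (Line 6) and 5155 (Line 3), and Eif2s3y reading 2325, 978 and 1031, and their part was not tested either. The Line 3 difference of Xist was 0.91 on its brightest probe set and 2.01 with the median of its probe sets or plain _at probe sets alone, and its Line 6 difference of 1.17 became 0.93 after centring. Of 9 tested genes for antigens that lineage depletion commonly targets, a list drawn up here, 1 passed 2-fold downward in both (Itgam) and 0 upward. Their medians were 0.17 and -0.76. The list sums were 12119, 9753 and 7213, mostly from Ptprc (7340, 5515 and 3963), and whether they follow lineage cells was not tested. Cd8b1 read 60.2 and 42.6 in the lines, below the array medians of 116 and 99.0. Of 17 tested stem and progenitor markers, which fit the label, 4 passed 2-fold upward in both and 0 downward (medians 0.50 and 0.61). The 4 were Procr, Mecom, Hoxa9 and Meis1. Mecom was at -0.45 in Line 6 and 0.66 in Line 3 when its probe sets were combined by their median. Meis1 in Line 6 was at 0.88 after quantile normalization, 0.79 after centring and 0.87 after cyclic loess. With a pseudocount of 64 it was at 0.86 in Line 6 and 0.93 in Line 3. In wild type, Procr (32.3) and Mecom (69.6) read below the array median of 96.2, so both were tested through the lines alone. Kit read 603, 899 and 923 and Cd34 read 971, 1838 and 2315, while Erg was at -0.21 and -0.21 and Tal1 at -0.08 and -0.03. Ly6a itself was not analysed here.

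Trem1, the receptor that amplifies neutrophil and monocyte responses, was the member furthest from wild type. Its brighter probe set, 1447284_at, read 1352 (wild type), 294 (Line 6) and 126 (Line 3). The Line 6 value was 21.8% of wild type and the Line 3 value 9.30%, which on the log2 scale are differences of -2.14 and -3.27, or 4.41-fold and 9.65-fold lower. The second probe set, 1460282_at, read 1006, 181 and 126, differences of -2.37 and -2.85. Both probe sets therefore put wild type far above both lines, and they disagree by 0.23 in Line 6 and 0.42 in Line 3. Counted from the lowest difference among the 10864 genes, Trem1 was number 23 in Line 6 and number 12 in Line 3.

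Trem3, a neighbouring gene for a second Tyrobp-coupled TREM receptor of mouse myeloid cells, had a smaller difference that was alike in both lines. Its probe set read 3869 (wild type), 1629 (Line 6) and 1508 (Line 3). These are differences of -1.24 and -1.35. The difference of Trem1 from wild type thus exceeded that of Trem3 by 0.90 in Line 6 and by 1.92 in Line 3, on the same 3 arrays.

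Clec4e and Clec4d encode Mincle and MCL, a pair of lectins that detect mycobacterial glycolipids and pair with Fcer1g. Clec4e on its brighter probe set, 1420330_at, read 1499 (wild type), 351 (Line 6) and 154 (Line 3), differences of -2.04 and -3.16. Its other probe set, 1420331_at, read 442, 75.7 and 42.3, differences of -2.32 and -2.97. The 2 line values lay below the array medians of 116 (Line 6) and 99.0 (Line 3). As with Trem1, both probe sets placed wild type highest and Line 3 lowest. Clec4d read 6309 (wild type), 2717 (Line 6) and 922 (Line 3), differences of -1.21 and -2.75. Line 3 thus held 14.6% of the wild type intensity and Line 6 held 43.1%. The single Clec4d probe set has the suffix _s_at, which Affymetrix gives to probe sets that can match more than 1 transcript.

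Clec4n, which encodes Dectin-2, a receptor of fungal mannans, was too dim to be tested. Its brighter probe set read 89.5 (wild type), 38.6 (Line 6) and 33.6 (Line 3), and the other 51.3, 20.0 and 20.0, all below the array medians of 96.2, 116 and 99.0. The differences of the brighter one were -0.95 and -1.09, and those of the other were -0.90 and -0.90. Wild type was the highest array on both probe sets, but the 2-fold limit was passed only in Line 3 and only on the brighter one.

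Clec5a (MDL-1) is a Tyrobp-coupled receptor of monocytes, macrophages and neutrophils. It read 2494 (wild type), 1009 (Line 6) and 821 (Line 3), differences of -1.29 and -1.58. Clec7a (Dectin-1), the receptor of fungal beta-glucan and the one here with its own signalling motif, read 1357, 755 and 574. Its differences of -0.83 and -1.22 were the smallest among the receptors tested, and it passed the 2-fold limit in Line 3 alone.

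The adaptors were much closer to wild type than the receptors were. Tyrobp read 13733 (wild type), 12034 (Line 6) and 10816 (Line 3), differences of -0.19 and -0.34. Fcer1g read 10438, 8273 and 8377, differences of -0.33 and -0.32. Wild type was still the highest array for both, and neither reached 2-fold in either line. Set against Tyrobp on the same arrays, Trem1 differed by a further -1.95 in Line 6 and -2.93 in Line 3, and Clec5a by -1.10 and -1.24. Set against Fcer1g, Clec4e differed by a further -1.71 and -2.84, Clec4d by -0.88 and -2.44, and Clec7a by -0.50 and -0.90. A common scaling of an array largely cancels in such a gap, which was below 0 for each of the 7 receptors against each adaptor in both lines. Fcer1g is also a gene of mast cells and basophils, whose 11 tested markers had medians of 0.21 in Line 6 and 1.05 in Line 3, with sums of 17980, 17792 and 30247 on the 3 arrays. Their part in the Fcer1g values was not tested.

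**Figure D2:**
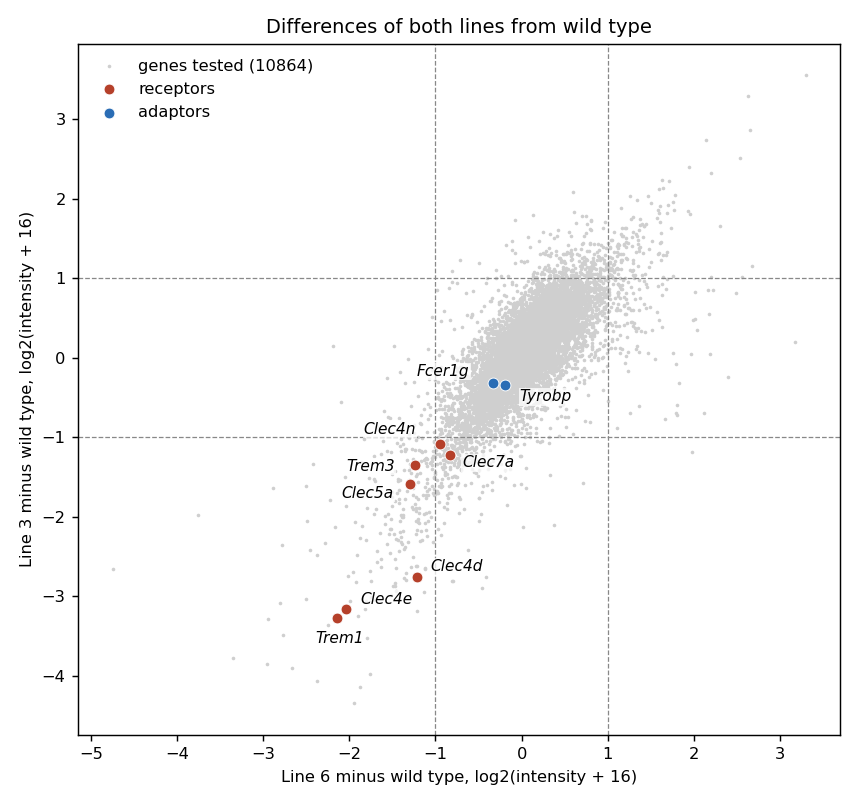
Line 6 minus wild type (horizontal) against Line 3 minus wild type (vertical), both on the log2(intensity + 16) scale, for the 10864 genes tested (grey), the 7 receptors (red) and the 2 adaptors (blue). Dashed lines mark 2-fold, both axes share the wild type array, and Clec4n is drawn although it was too dim to be tested. The receptors lie in or beside the lower left field, with Trem1 at -2.14 and -3.27, and the adaptors lie inside the 2-fold limits.

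The lines also differed from each other at 3 of the receptors, a comparison that does not use the wild type array. Clec4d was 2.92-fold lower in Line 3 than in Line 6 (-1.54), Trem1 was 2.19-fold lower (-1.13) and Clec4e 2.16-fold lower (-1.11). Of the genes tested, 1.58% were at least 2-fold lower in Line 3 than in Line 6. The second probe sets of Trem1 (-0.47) and Clec4e (-0.65) had the same direction without reaching 2-fold. That of Clec4e lay below the array median in both lines. Centring each array on its median left the call only for Clec4d, and so did a pseudocount of 64 and taking the median of probe sets. The other 4 receptors lay between -0.39 and -0.11, Tyrobp at -0.15 and Fcer1g at 0.02. Over the genes tested, Line 3 minus Line 6 had an SD of 0.38, which mixes true line differences with noise. On these arrays the neutrophil markers had a median of -0.43 between Line 3 and Line 6, and their part in the 3 receptor differences was not tested.

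An error could be had only by treating Line 6 and Line 3 as replicates of a single transgenic group in limma. The mean difference from wild type was -2.71 (SE 0.46) for Trem1, -2.60 (SE 0.45) for Clec4e and -1.98 (SE 0.59) for Clec4d. Trem3 was at -1.30 (SE 0.23), Clec5a at -1.44 (SE 0.24) and Clec7a at -1.03 (SE 0.26). The adaptors were at -0.27 (SE 0.23) for Tyrobp and -0.33 (SE 0.22) for Fcer1g. Limma's p-values after Benjamini-Hochberg adjustment over all genes tested ran from 0.108 to 0.208 for these 6 receptors and were 0.613 for Tyrobp and 0.519 for Fcer1g. No gene of the 10864 passed 0.05 in this limma fit, while 759 were lower and 973 higher at an unadjusted p under 0.05. All 6 of the receptors tested were among the 759, with the lone wild type array assumed to vary as the lines do.

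Sequence before the gene start was at hand for 6 of the 9 members, in a RefSeq table on build GRCm38.p6. The windows of the receptors past 2-fold in both lines, Trem1, Clec4d, Clec4e and Clec5a, are shown because these genes were lower together, beside that of the adaptor Fcer1g. Trem3, Clec4n and Tyrobp had no entry. Each runs 5′ to 3′ on the gene's strand over the 250 bases before the start. Capitals mark, on either strand, the letters GAGGAA, which hold the core bound by the myeloid factor PU.1, and TTNNGNAA, a core of C/EBP factors.
Trem1 (chr17:48232489-48232738, plus strand): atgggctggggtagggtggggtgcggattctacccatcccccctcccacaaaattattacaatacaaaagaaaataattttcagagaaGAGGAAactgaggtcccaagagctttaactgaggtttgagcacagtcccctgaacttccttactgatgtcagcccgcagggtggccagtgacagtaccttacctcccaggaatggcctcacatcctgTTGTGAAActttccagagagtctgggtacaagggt
Clec4d (chr6:123261857-123262106, plus strand): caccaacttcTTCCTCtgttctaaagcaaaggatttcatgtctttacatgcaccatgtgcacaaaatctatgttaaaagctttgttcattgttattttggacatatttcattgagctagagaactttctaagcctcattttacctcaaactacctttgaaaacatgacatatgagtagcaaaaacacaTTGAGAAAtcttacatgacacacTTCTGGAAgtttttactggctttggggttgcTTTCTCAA
Clec4e (chr6:123289872-123290121, minus strand): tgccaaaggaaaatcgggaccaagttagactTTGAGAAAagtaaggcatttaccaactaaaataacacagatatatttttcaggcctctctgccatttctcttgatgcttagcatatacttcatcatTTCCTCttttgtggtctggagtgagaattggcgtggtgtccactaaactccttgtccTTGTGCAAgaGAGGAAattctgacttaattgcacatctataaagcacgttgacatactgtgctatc
Clec5a (chr6:40585806-40586055, minus strand): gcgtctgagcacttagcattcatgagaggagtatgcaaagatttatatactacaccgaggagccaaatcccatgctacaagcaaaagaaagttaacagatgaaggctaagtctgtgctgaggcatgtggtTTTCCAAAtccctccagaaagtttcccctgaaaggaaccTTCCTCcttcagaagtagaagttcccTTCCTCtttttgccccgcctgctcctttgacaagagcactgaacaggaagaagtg
Fcer1g (chr1:171234350-171234599, minus strand): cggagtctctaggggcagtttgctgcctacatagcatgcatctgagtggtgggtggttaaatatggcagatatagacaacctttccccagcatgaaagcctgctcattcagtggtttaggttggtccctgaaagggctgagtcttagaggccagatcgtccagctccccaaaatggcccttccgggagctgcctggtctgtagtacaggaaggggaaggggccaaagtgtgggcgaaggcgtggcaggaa

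Each of the 4 receptor windows held both kinds of match, and the Fcer1g window held neither. The shorter letters GGAA, the core within GAGGAA, were not counted, and they do occur in the Fcer1g window. Trem1 and Clec4d had 1 GAGGAA match each, and Clec4e and Clec5a had 2 each. TTNNGNAA occurred 1 time in Trem1 and in Clec5a, 2 times in Clec4e and 3 times in Clec4d. Clec7a, whose table has 2 nearby starts, had 1 GAGGAA match and no TTNNGNAA match before either. No matches overlapped. Among all 32851 windows of this length in the table, 23.3% held GAGGAA and 36.8% held TTNNGNAA on at least 1 strand. The share holding both was not counted, and Fcer1g was the only adaptor with a window. The AP-1 letters TGANTCA, present in 6.75% of all windows, were in none of the 6 members' windows. A match describes the letters and does not show a bound site.

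**Figure D3:**
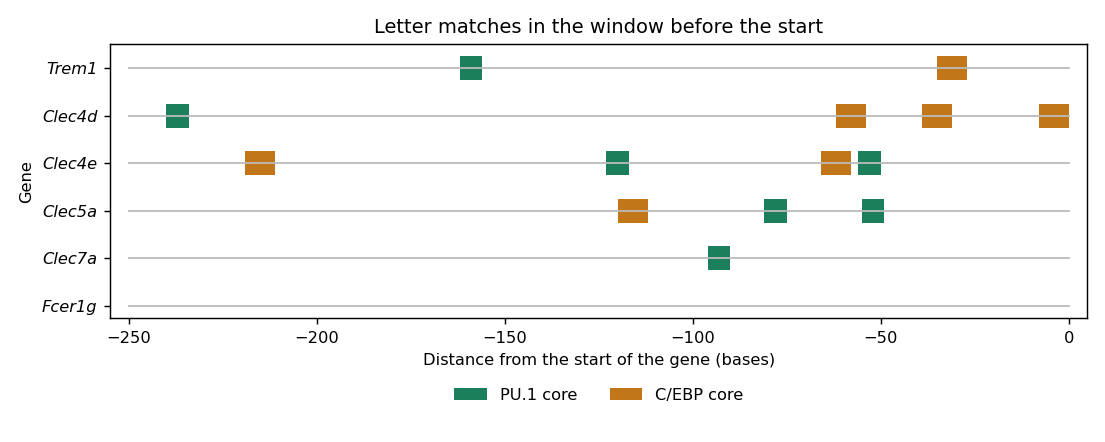
Positions of the letter matches in the 250 bases before the start of 6 members, in bases from the start. Green marks GAGGAA (labelled PU.1 core) and orange marks TTNNGNAA (labelled C/EBP core). Clec7a is shown for 1 of its 2 starts. The 4 receptors at the top hold both kinds, and the Fcer1g line is empty.

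Neighbouring genes of the same families were a mixed group. In the gene table, Trem1 and Trem3 lie in a run of 6 TREM genes, and none of the 3 others tested there was 2-fold lower in both lines. Trem2, the Tyrobp-coupled receptor of tissue macrophages, lay at 0.10 and 0.50, Treml4 at 0.06 and -0.63, and Treml2 at -0.11 and -0.36. Clec4n, Clec4d and Clec4e end a run of 9 lectin genes, of which 3 others were tested. Clec4a2, an inhibitory lectin, lay at -0.92 and -1.53 and Clec4a3 at -0.59 and -1.19, both past 2-fold in Line 3 alone, and Clec4b1 at -0.12 and -0.60. Centring on array medians and the median of its probe sets also took Clec4a2 past 2-fold in Line 6. Around Clec7a, none of the 4 other lectin genes tested was 2-fold lower in either line.

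Over wider lists, drawn up by known function but with earlier results of these data known, some genes passed 2-fold and most did not. Of 4 tested genes in a list of other TREM genes with Nfam1, an ITAM receptor, none was past 2-fold in both lines, with medians of -0.03 and -0.50. Nfam1 itself was at -0.80 and -1.10, and past 2-fold in both after centring. Of 14 other C-type lectin receptors tested, 1 was lower in both lines, Ly75 (DEC-205, -1.67 and -2.56). In turn 2 were higher, Mrc1 (1.94 and 2.41) and Cd209f (2.20 and 2.32), and the list medians were 0.13 and -0.20. Cd209f read only 16.7 in wild type, below the array median of 96.2, so it was tested through the lines alone. Of 19 tested genes in a list of other receptors that pair with such adaptors, which also holds the adaptor gene Hcst, 4 passed 2-fold downward in both and 0 upward (medians -0.28 and -0.27). The 4 were Sirpb1a (-1.46 and -2.93), Cd300ld (-1.35 and -2.80), the IgG receptor Fcgr4 (-1.23 and -1.75) and Pilrb1 (-1.01 and -1.43). The Line 6 value of Pilrb1 was -0.96 after quantile normalization and -0.99 with a pseudocount of 64. Hcst, the adaptor DAP10, was at -0.79 and -0.76. Of 17 inhibitory counterparts, 5 passed 2-fold downward in both and 0 upward (medians -0.33 and -0.27). Cd33 (-1.80 and -3.06), Siglece (-1.57 and -2.34), Cd300lf (-1.26 and -2.50) and Pirb (-1.53 and -2.21) led them.

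**Figure D4:**
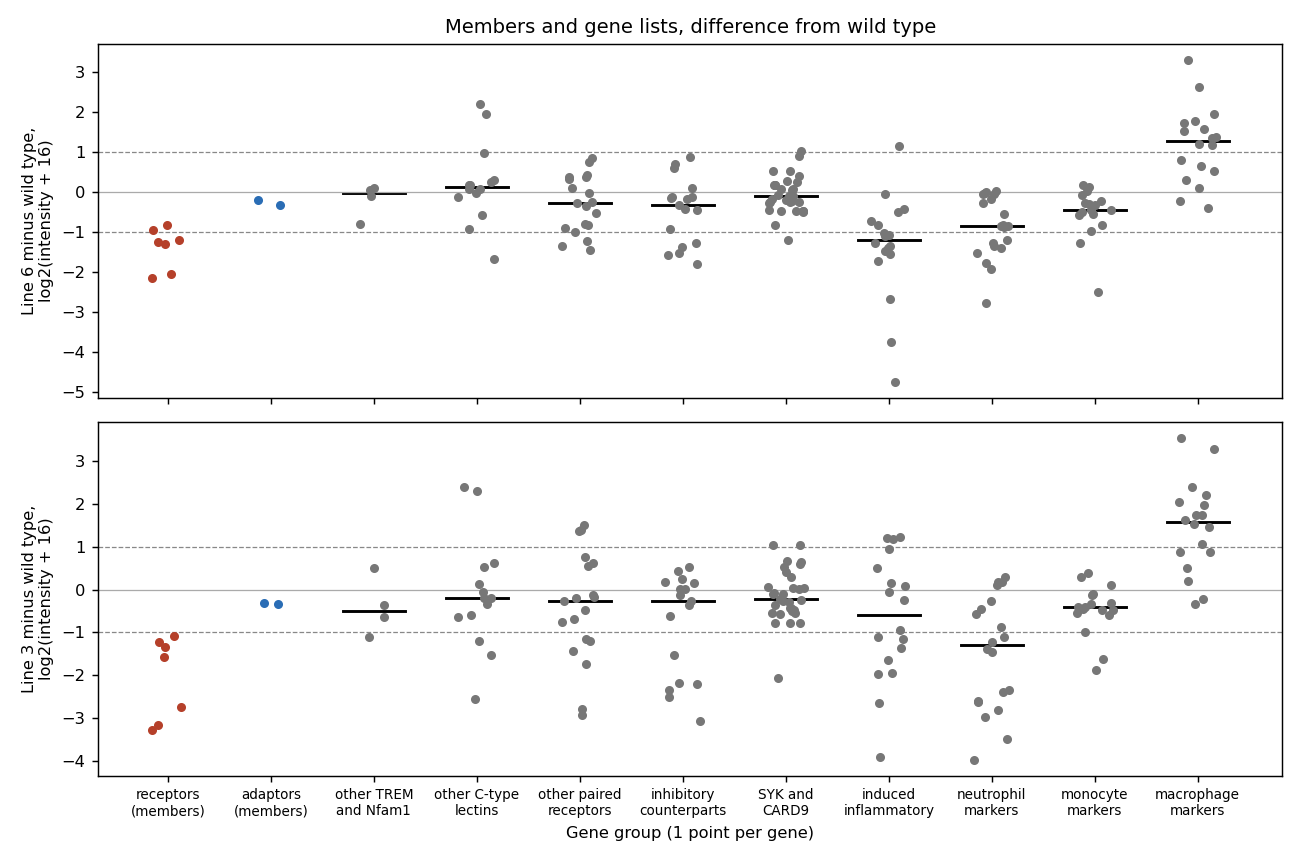
Differences from wild type on the log2(intensity + 16) scale in Line 6 (top) and Line 3 (bottom), 1 point per gene, for the receptors, the adaptors and 9 gene lists. Black bars are medians of the lists, and dashed lines mark 2-fold. The 7 receptors all lie below 0, SYK and CARD9 pathway genes centre near 0 (medians -0.11 and -0.21), and macrophage markers lie mostly above 0.

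The signalling steps after the receptors were closer to wild type than the receptors. Of 31 tested genes of the SYK and CARD9 pathway, 1 was lower in both lines and 1 was higher, with medians of -0.11 and -0.21. Fgr, a SRC family kinase of myeloid cells, was lower (-1.20 and -2.07). Fyn, another SRC family kinase, was higher (1.03 and 1.04) but its call did not hold in several settings. It was short of 2-fold in both lines after quantile normalization (0.95 and 0.96), after cyclic loess (0.93 and 0.94), with a pseudocount of 64 (0.93 and 0.94) and with the median of its probe sets (0.96 and 0.68), and in Line 6 after centring (0.80). Syk read 2866 (wild type), 2515 (Line 6) and 2112 (Line 3). Of 18 tested inflammatory genes known to be induced after such receptors, 8 were lower in both lines and 1, Il12a (1.16 and 1.21, with 0.92 in Line 6 after centring), was higher, with medians of -1.19 and -0.59. Counted line by line, 12 were lower in Line 6, whereas in Line 3 8 were lower and 3 were higher. In 6 of the 18 the lines lay on opposite sides of wild type, among them Il6 (-0.72 and 1.24), Ccl4 (-0.49 and 1.19), Ccl3 (-0.81 and 0.96) and Ier3 (-1.04 and 0.51). Among the 8 were the chemokine gene Cxcl2 (-4.75 and -2.66), Il1b (-2.66 and -3.91), the prostaglandin synthase gene Ptgs2 (-3.75 and -1.98) and the signalling inhibitor gene Socs3 (-1.72 and -1.96). Tnf (111 in Line 6 and 69.3 in Line 3) and Ccl2 (53.4 and 49.5) were also among the 8. Both read below the array medians of 116 and 99.0 in the lines, so they were tested through wild type alone. Ptgs2 read 43.1 in Line 6, below that array's median too. Many other receptors can induce these genes, and neutrophil markers had medians of -0.86 and -1.30 on the same arrays; their part was not tested.

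The 5 other genes nearest to Trem1 in their pair of differences were sought over all genes tested, as the distance between points in the plane of the Line 6 and Line 3 differences, which rests on 3 arrays. They were AA467197 (distance 0.14), Ceacam10 (0.24), Lrg1 (0.26), Ifnlr1 (0.34) and Cd33 (0.40). Lrg1, a secreted glycoprotein gene of granulocytes, read 4621 (wild type), 1149 (Line 6) and 543 (Line 3). AA467197 read 3930, 813 and 368.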

How the data were processed

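Expression was measured on 3 arrays with 1 colour, 1 per genotype. The deposited values are intensities on a linear scale, 1 per probe set and array. The labels and headers name no summary method, scaling or software, and a mean of 497 after trimming 2% from each end on every array shows a common scaling in the authors' values. Detection calls were not used here. Genes were named from the platform annotation, with symbols updated by Entrez identifier in a GRCm38.p6 gene table (34741 of 34945 probe sets with 1 symbol matched, while 932 had several symbols and 9160 were not listed).

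Values were taken as log2(intensity + 16), which understates differences of dim genes. Each gene took the values of its brightest probe set (mean on that scale) and was tested if that set reached the array median on at least 1 array. Its difference was called at 2-fold, with no p-value because each group has 1 array. A limma fit (limma 3.58.1, R 4.3.3) with the lines as 2 samples of 1 group was an alternative, with p adjusted by the Benjamini-Hochberg method. Calls and fit were tested on simulated data. Python 3.11.15, numpy 2.4.6, pandas 2.3.3 and matplotlib 3.10.9 were used. Motifs were searched on both strands.

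Named were all members, up to 4 genes per list with the largest mean absolute difference, and the 5 genes nearest to Trem1, while neighbours were to be counted. Neighbours, Hcst, Syk, Mpo, Ctsg, Kit, Meis1, Erg, Tal1, Ptprc, Cd8b1, Il12a, Il6, Ccl3, Ccl4, Ier3 and the sex-linked genes were named beside this rule, after their values were seen. Tnf, Ccl2, Spic, Siglec1 and Mertk were also named beside it, for their low readings. The members and lists were chosen with earlier results of these data known. Protein motifs listed for the members were not analysed here. With 3 arrays, precision is limited by their number.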

Additional observations from a re-analysis of the deposited data

Results flagged for a closer look

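Among the neighbouring and listed genes named with the members, 3 lay above wild type in Line 6 and below it in Line 3, on 1 array per line; whether the lines differ there was not tested. Clec1b, a platelet lectin gene in the run that holds Clec7a, differed by -0.80 between Line 3 and Line 6, Treml4, next to Trem3, by -0.68, and Olr1, the oxidised LDL receptor gene next to Clec7a, by -0.64. None of these 3 reached 2-fold. Of the inflammatory genes named, 4 lay below wild type in Line 6 and above it in Line 3, and this was not tested either; Line 3 minus Line 6 was 1.95 for Il6, 1.77 for Ccl3, 1.68 for Ccl4 and 1.55 for Ier3. Medians of 2 gene lists had opposite signs in Line 6 and Line 3, also not tested: that of Line 3 minus Line 6 was -0.32 over other C-type lectin receptors and -0.42 over lineage antigens (0.17 in Line 6 and -0.76 in Line 3). Over myeloid transcription factors, with medians of -0.37 and 0.00, it was 0.18.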

How the results depend on the processing

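The count of 5 members lower in both lines was within 1.5 times of itself under each alternative scaling, probe set rule and pseudocount and at a limit of 1.5-fold, and none was higher in both under any of them. At a limit of 3-fold, 2 members were lower in both lines, 2 in Line 6 and 3 in Line 3, and 0 were lower in Line 3 than in Line 6. In the limma fit 0 members passed an adjusted p of 0.05. The 3 members lower in Line 3 than in Line 6 became 1 after centring on array medians, with a pseudocount of 64, or with probe sets of a gene combined by their median. The cause was not tested.

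No difference of a member past 2-fold changed sign, and among the other named genes that were recomputed, Mecom in Line 6 did (-0.45 with the median of probe sets). Cd5l, Spic, Siglec1, Mertk, Ptprc, Cd8b1, Tnf and Ccl2 were not recomputed. The 27 member differences were recomputed under up to 7 settings each, which gave 183 values. Of these values, 170 kept their side of 2-fold, 8 lost it and 5 gained it, most of the changes being of Clec4n, Trem1 and Clec4e. Clec4n ran from -1.19 to -0.58 in Line 6. All 188 recomputed gaps between a receptor and an adaptor were below 0, the smallest being -0.25. Centring moved the median of all genes in Line 6 from 0.06 to -0.17. Restricting to plain _at probe sets left 7 members, without Clec4d and Clec4n. Without the filter, 1.89% of 18193 genes were lower in both lines, and 2.14% of 6868 with the filter at percentile 75. The shares higher in both lines moved more, at 1.5% and 0.437%, against 1.35% with the main filter. No replicate could be left out, because each group has 1 array. No paired analysis was possible because each group has 1 array.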

Other observations

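Among 21 tested genes for myeloid transcription factors, 1 passed 2-fold downward in both lines and 0 upward (medians -0.37 and 0.00). Atf3, a stress-induced factor, differed by -2.42 and -1.33. Cebpd, a C/EBP factor of maturing granulocytes, differed by -0.90 and -1.21. Spi1, the gene of PU.1, read 4625 (wild type), 3283 (Line 6) and 3078 (Line 3), differences of -0.49 and -0.59. Cebpb read 4308, 3233 and 2900, differences of -0.41 and -0.57, and Cebpa read 1921, 2209 and 3171, differences of 0.20 and 0.72. Dendritic cell markers, whose cells use several of these lectins, had medians of 0.25 and 0.47, with none of 12 past 2-fold in both lines. Spi1, Cebpb and Cebpa were chosen after their values were seen, because their letters were searched in the promoters.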
